A study of Mus musculus with 2 samples.

Results

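The homeobox genes of regional identity described here are transcription factor genes of 10 families, Hox, Lhx, Emx, Dlx, Pax, the sine oculis family, Otx, Nkx, Meis and Irx. They were chosen by gene symbol alone, and the rule found 94 genes among the 55536 mouse genes measured, all among the 22028 protein-coding ones. No expression value entered the choice. Hox genes make up 39 of the 94, in 4 chromosomal clusters, and the other families hold 55.

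Homeobox genes encode proteins that bind DNA through a homeodomain, and in the embryo their overlapping territories divide the neural tube into regions. The name is used here for every gene chosen by symbol, all Pax genes included. Whether each of the chosen genes encodes a full homeodomain was not tested, and some Pax genes may not. Hox genes pattern the hindbrain and spinal cord along the head to tail axis and are normally off in the forebrain. Emx and Lhx genes help to specify the cortex and hippocampus, Dlx genes the ventral forebrain from which inhibitory interneurons migrate, and Otx, Irx, Pax, sine oculis and Nkx genes other fields of the brain and body. Many of them stay on in the adult cells that descend from those fields.

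The data are total RNA sequencing of 2 samples of hippocampus from male B6CASTF1/J mice, F1 hybrids of C57BL/6J and CAST/EiJ, aged 36 days, with no treatment named. They form 1 group with biological replicates 1 and 2, each library made from 300 ng of RNA, so there is no condition to compare. The tissue label names a layer of the hippocampus without saying which. In the labels the samples share a donor identifier and differ in biosample, and nothing else says that they came from separate animals. Values between replicates therefore measure the spread between these samples, which may be technical.

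Replicate 1 held 28665109 expected counts in genes and replicate 2 held 29633722. An expected count is an estimate of the reads that came from a gene, and TPM is that estimate per transcript length, scaled to a fixed total per library. Markers of hippocampal pyramidal neurons (6 of 6), dentate granule cells (4 of 4), interneurons (7 of 7), astrocytes (4 of 4) and oligodendrocytes (5 of 5) reached 1 TPM in both libraries. None of 7 hindbrain and midbrain markers did. Markers listed for striatum and septum (6 of 6), thalamus and habenula (4 of 5), meninges and mural cells (6 of 7) and ependyma (2 of 4) also reached it. The threshold therefore does not set the hippocampus apart from all other regions. The libraries stood apart in the choroid plexus, where the summed level of 9 markers was 9.25 TPM in replicate 1 and 193 TPM in replicate 2. Most of the sum in replicate 2 was 1 gene, Ttr, at 3.62 TPM in replicate 1 and 179 TPM in replicate 2.

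Of the 94 homeobox genes, 15 reached 1 TPM in both libraries, or 16% of them, against 57.8% of all protein-coding genes. No read was counted in either library for 50 of the 94, or 53.2%, against 21.4% of protein-coding genes. The other 29 had counts but stayed below 1 TPM in both libraries. All 94 together held 5806 counts in replicate 1 and 6033 in replicate 2, and 130.9 and 129.7 TPM. In bulk tissue a gene that is low because few cells express it cannot be told apart from a gene with little RNA in each of many cells.

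**Figure D1:**
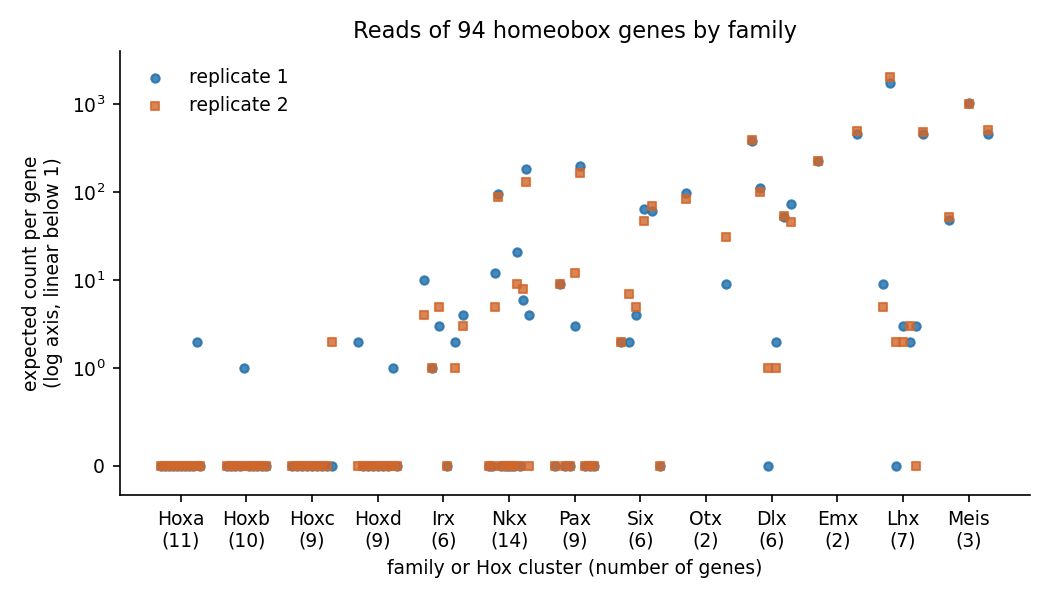
Expected counts of the 94 homeobox genes by family or Hox cluster (number of genes in brackets), on an axis that is logarithmic above 1 and linear below it. Each gene has a circle for replicate 1 and a square for replicate 2. The 4 Hox clusters lie at or close to 0, and the genes of the Lhx, Meis, Emx and Dlx families reach highest.

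The Hox clusters held few reads. Of 39 Hox genes, 34 had 0 counts in both libraries of the gene table (87.2%), and the whole set held 6 counts in replicate 1 and 2 in replicate 2. A second transcript table of the same libraries gave the set 70.0 and 61.0 counts, so the number of reads differs between the deposited tables. Among the 55 genes of the other families 16 were at 0 (29.1%). A count of 0 allows up to 3 counts, which is 0.104 CPM (counts scaled by the library's total) in replicate 1 and 0.101 CPM in replicate 2. That table exceeded this limit for some genes at 0, such as Hoxd11 with 12.6 and 7.77 counts. Such limits cover counting error only, because reads that carry no molecular identifier need not come from separate molecules.

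In the Hoxa cluster (mm10, chr6:52155590-52260880, 105 kb) 10 of 11 genes were at 0, and Hoxa7 had 2 counts in replicate 1. In the Hoxb cluster (chr11:96194316-96368256, 174 kb) 9 of 10 were at 0, and Hoxb4 had 1 count in replicate 1. In the Hoxc cluster (chr15:102921103-103036852, 116 kb) 8 of 9 were at 0, and Hoxc9 had 2 counts in replicate 2. In the Hoxd cluster (chr2:74668310-74765142, 96.8 kb) 7 of 9 were at 0, with 2 counts for Hoxd1 and 1 for Hoxd8, all in replicate 1. In the gene table no Hox gene had a count in both libraries.

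The highest homeobox gene was Lhx2, a LIM homeodomain factor required for the embryonic cortex and hippocampus to form. It measured 36.52 TPM in replicate 1 and 42.16 TPM in replicate 2, a mean of 39.3 ± 3.99 TPM (SD, n = 2), from 1720 and 1994 counts. This placed it at percentile 88.2 of protein-coding genes by mean TPM, well above the next homeobox gene. Lhx2 lies at chr2:38339281-38369733 on the plus strand.

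Lhx9, a close relative of Lhx2 known from the thalamus and from early cortical neurons, measured 6.56 and 5.87 TPM in replicates 1 and 2 (6.21 ± 0.488, SD, n = 2). Its counts, 449 and 482, went the other way from its TPM. Markers of thalamus and habenula, of which 4 of 5 reached 1 TPM, summed to 26.04 and 28.72 TPM, with the habenular Pou4f1 at 0.01 TPM in each library; their part in the level of Lhx9 was not tested. The other 5 Lhx genes were below 1 TPM. Lhx1 had 9 and 5 counts and Lhx5 had 2 and 3, both known from Cajal-Retzius cells among others. Of 5 markers of those cells 4 reached 1 TPM in both libraries, from Reln at 19.63 and 21.41 TPM to Cxcr4 at 2.25 and 2.32 TPM. Trp73 did not, at 1.24 and 0.64 TPM. It was 1.59-fold higher in replicate 1 by scaled counts and was called apart in the test described below. The part of such cells in the counts of Lhx1 and Lhx5 was not tested. Lhx8, a factor of basal forebrain cholinergic neurons, had 3 counts in replicate 1 and 0 in replicate 2, and none of 4 markers of those neurons reached 1 TPM in both libraries. Lhx4 had 3 and 2 counts, and Lhx3, a motor neuron and pituitary factor, 0 and 2.

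Both Emx genes, factors of the dorsal forebrain that are needed for hippocampal growth, were on. Emx2 (chr19:59458372-59465357) measured 11.02 TPM in replicate 1 and 10.68 TPM in replicate 2 (10.8 ± 0.240, SD, n = 2), from 453 and 497 counts. Emx1 (chr6:85187438-85204462) measured 8.01 and 7.62 TPM (7.82 ± 0.276, SD, n = 2), from 224 counts in each library. The levels of Emx2 and Emx1 did not overlap between genes, and each gene varied little between the libraries. Emx2os, the noncoding RNA opposite Emx2, measured 1.54 and 1.49 TPM.

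Among the Meis genes, whose proteins belong to the TALE class of homeodomain factors and partner Hox and Pbx proteins, Meis2 and Meis3 were high. Meis2 measured 19.14 and 17.33 TPM (18.2 ± 1.28, SD, n = 2) and Meis3 measured 15.63 and 17.39 TPM (16.5 ± 1.25, SD, n = 2). Their values overlapped in the gene table, so the order of these 2 genes was not settled there by 2 libraries. The second transcript table put Meis2 (47.8 and 44.3 TPM) above Meis3 (32.5 and 38.5 TPM) in both. Meis1 was just under the threshold, at 0.85 and 0.91 TPM from 48 and 51 counts, and was the only homeobox gene here with a posterior SD above 0, a measure of how uncertainly its reads were assigned. The family summed to 35.6 TPM in each library while the Hox genes they partner summed to 0.15 and 0.04 TPM.

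The Dlx genes lie in convergent pairs, and their proteins specify inhibitory interneurons of ventral origin. Dlx1 measured 6.17 and 6.39 TPM (6.28 ± 0.156, SD, n = 2), and Dlx2, 9.43 kb away on chromosome 2, measured 2.59 and 1.95 TPM (2.27 ± 0.453, SD, n = 2). Dlx6 measured 3.87 and 2.21 TPM (3.04 ± 1.17, SD, n = 2), and Dlx5, 9.24 kb away on chromosome 6, measured 1.91 and 1.86 TPM (1.89 ± 0.0354, SD, n = 2). Dlx1 was above Dlx2 and Dlx6 above Dlx5 in both libraries, the latter by a narrow margin in replicate 2. The pair Dlx3 and Dlx4, known from skin, bone and placenta, was nearly silent, with 0 and 1 counts and 2 and 1 counts.

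Noncoding RNAs opposite Dlx1 and Dlx6 were higher in TPM than the genes themselves. Dlx1as measured 9.09 TPM in replicate 1 and 9.97 TPM in replicate 2, which was 1.47 and 1.56 times Dlx1. In counts it was lower, with 99 and 114 against 383 and 393 for Dlx1. Dlx6os1 measured 10.23 and 9.33 TPM, which was 2.64 and 4.22 times Dlx6. It was also higher in counts, with 701 and 676 against 73 and 45 for Dlx6. Because no source used here gives the strand setting of the counting, reads from such overlapping genes cannot be told apart with certainty. An opposite-strand gene at 0.5 TPM or more on average overlapped 6 of the 94 genes, the others being Emx2 with Emx2os, Nkx6-2 with the phosphatase gene Inpp5a (16.05 and 16.95 TPM, over 277 bases), Nkx2-2 with 6430503K07Rik (0.77 and 0.37 TPM), and Six6 with 4930447C04Rik (2.75 and 3.25 TPM).

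Of 14 Nkx genes 2 passed 1 TPM, both known from the oligodendrocyte lineage. Nkx6-2, on in myelinating oligodendrocytes, measured 5.42 and 3.62 TPM (4.52 ± 1.27, SD, n = 2) from 182 and 129 counts. Nkx2-2, a factor of oligodendrocyte precursors, measured 2.89 and 2.63 TPM (2.76 ± 0.184, SD, n = 2). Below 1 TPM, Nkx2-1, which specifies interneurons of the medial ganglionic eminence in the embryo, had 12 and 5 counts, Nkx6-1 had 6 and 8, and Nkx6-3 had 4 and 0. At 0 in both libraries were 8 others, among them the heart factor Nkx2-5.

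Of 9 Pax genes Pax6 was the highest. Pax6, needed for the eye and the dorsal forebrain, measured 4.38 and 3.72 TPM (4.05 ± 0.467, SD, n = 2), from 197 and 164 counts. Pax2 had 9 and 9 counts and Pax5 had 3 and 12, both factors of the boundary between midbrain and hindbrain. The others, Pax1, Pax3, Pax4, Pax7, Pax8 and Pax9, were at 0 in both libraries.

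In the remaining families levels were low. Otx1, a factor of cortical development, measured 1.60 and 1.23 TPM (1.42 ± 0.262, SD, n = 2), and Otx2, needed for forebrain and midbrain and on in adult choroid plexus, 0.43 and 0.89 TPM (0.660 ± 0.325, SD, n = 2). Six5 sat at the threshold, with 1.00 and 1.12 TPM (1.06 ± 0.0849, SD, n = 2), and was the only gene of the sine oculis family to pass it. Six4 followed at 0.49 and 0.34 TPM, Six2 and Six3 had 2 to 7 counts per library, and the eye factor Six6 was at 0. The highest of the 6 Irx genes, which pattern the midbrain, hindbrain and heart, was Irx1 at 0.43 and 0.08 TPM, and none passed 1 TPM.

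**Figure D2:**
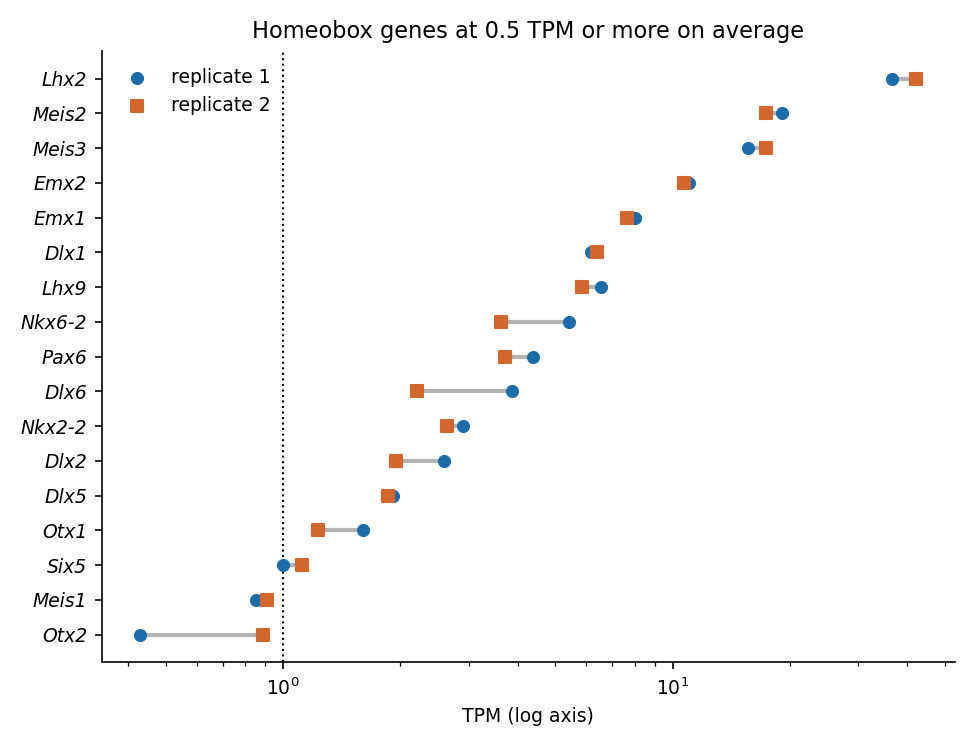
TPM (log axis) of the 17 homeobox genes with a mean of at least 0.5 TPM, with a circle for replicate 1, a square for replicate 2 and a dotted line at 1 TPM. Lhx2 lies highest in both libraries, at 36.52 and 42.16 TPM, and Otx2 and Dlx6 have the widest gaps between the libraries on this scale.

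Each gene was then compared between the libraries by an exact binomial test on scaled counts, with Benjamini-Hochberg adjustment over 18270 genes, and called apart at an adjusted p under 0.05 and at least 1.5-fold. The test compares these 2 libraries, not a condition. Of 19 homeobox genes with enough counts to test, 1 was called, Otx2, while 1.88% of all genes tested were called in either direction, 1.22% were called higher in replicate 2 and 0.662% higher in replicate 1. A single gene among 19 says little about the family as a whole. The median size of the log2 ratio was 0.17 over the 19 genes and 0.11 over all genes, and 16 of the 19 (84.2%) lay within 1.5-fold, against 92.7% of all genes.

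Otx2 counts were 9 in replicate 1 and 31 in replicate 2. This is a 3.22-fold difference (95% interval 1.55 to 7.99, adjusted p = 0.00973 in the exact binomial test with Benjamini-Hochberg adjustment). Choroid plexus markers moved the same way: 7 of 8 tested were called higher in replicate 2, none of the 9 was at 0, and Ttr, the transthyretin gene, went from 3.62 to 179 TPM. Their part in the difference of Otx2 was not tested. With the dispersion shared by all genes added to the counting error, edgeR's exact test gave an adjusted p of 0.0981 for Otx2, which ends the call. From TPM in place of counts its log2 ratio was 1.03 or 0.90 (pseudocount 0.01 or 0.1), against 1.69 from counts.

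Lhx2 was 1.13-fold higher in replicate 2 (95% interval 1.06 to 1.20, exact binomial test, adjusted p = 0.00505), too small a difference for the call. Nkx6-2 was 1.45-fold higher in replicate 1 (95% interval 1.15 to 1.83, exact binomial test, adjusted p = 0.0147), also under the fold minimum. None of 5 markers of oligodendrocytes and their precursors was called apart, and their sum was 995 and 978 TPM. All 5 had scaled counts lower in replicate 2, and Mobp (ratio 0.940, adjusted p = 0.000654, exact binomial test) and Pdgfra (0.896, adjusted p = 0.0136) missed only the fold minimum. Sox10 (ratio 0.957), Cspg4 (0.914) and Mbp (0.999) did not pass the p threshold. Mbp, the highest of the 5, was thus nearly level, at 723 and 729 TPM. The part of the 5 markers in the difference of Nkx6-2 was not tested. Dlx6 was 1.66-fold higher in replicate 1 and did not pass (exact binomial test, adjusted p = 0.0605).

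**Figure D3:**
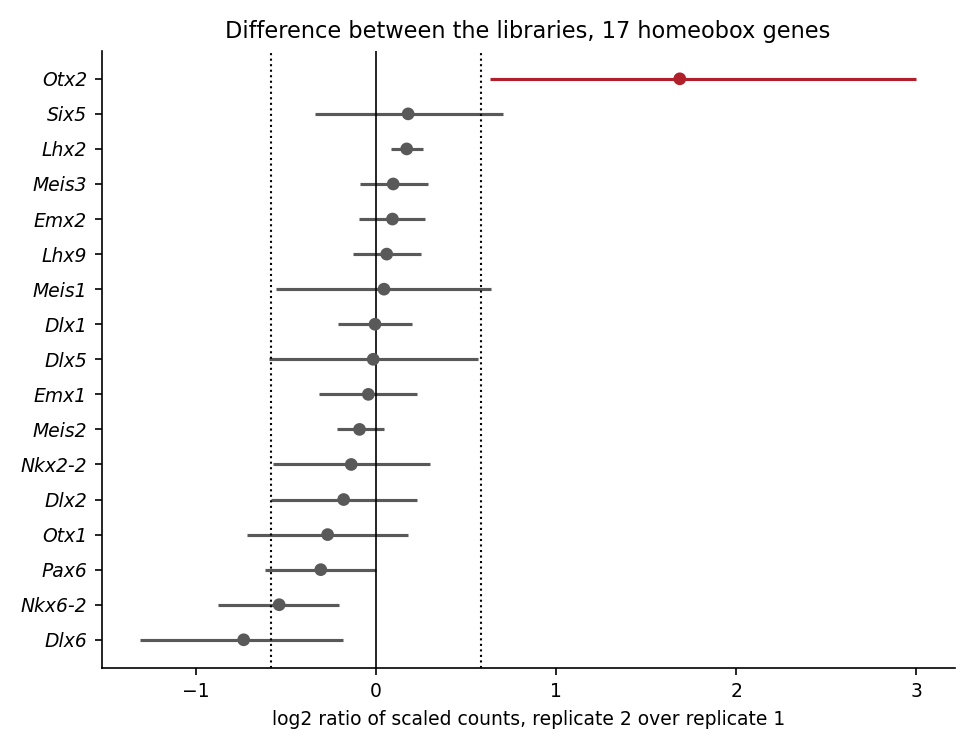
Log2 ratio of scaled counts, replicate 2 over replicate 1, of the 17 homeobox genes with a mean of at least 0.5 TPM, all of them tested, with exact 95% intervals and dotted lines at 1.5-fold. Otx2, in red, is the gene called apart; the other 16 are in grey.

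The factors that work with these proteins were measured from lists of 129 genes. Of 9 TALE partners of Hox and Meis 7 reached 1 TPM in both libraries, among them Pbx2 at 24.94 and 24.90 TPM and the Pbx-binding Pbxip1 at 16.76 and 17.17 TPM. Of 14 cofactors of LIM homeodomain proteins and further LIM factors 10 did, with the Ldb1-binding Ssbp4 at 104.51 and 109.07 TPM, and Lmo4 and Lmo3, LIM-only proteins, at 86.24 and 82.98 TPM and at 81.24 and 75.74 TPM. Because 79 of the 94 homeobox genes were below 1 TPM in both libraries, partner levels above most of them say little. Of all protein-coding genes 57.8% reached 1 TPM in both libraries. Of 6 Eya and Dach genes, cofactors of sine oculis proteins, 5 did, led by Eya1 at 10.69 and 12.62 TPM, Eya3 at 10.97 and 9.57 TPM and Eya4 at 2.49 and 2.27 TPM.

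All 20 further homeodomain factors of forebrain neurons reached 1 TPM in both libraries. Zeb2, which directs interneuron and glial development, measured 177 and 159 TPM, Adnp 38.12 and 35.85 TPM, and Prox1, the dentate granule cell factor, 32.94 and 45.11 TPM. None of 20 homeodomain factors of the hindbrain, midbrain and other fields did, 13 of them were at 0 in both libraries, and the highest, En2, measured 0.23 and 0.11 TPM.

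Polycomb proteins keep Hox genes repressed and trithorax proteins keep them active. Of 29 Polycomb genes 28 reached 1 TPM in both libraries, the highest being Cbx6 (144 and 145 TPM), Rbbp7 (58.74 and 60.91 TPM) and Rbbp4 (47.48 and 50.88 TPM). All 8 trithorax and H3K27 demethylase genes did, led by Kmt2d (39.85 and 40.05 TPM), Kmt2c (36.05 and 37.86 TPM) and Ash1l (35.37 and 35.93 TPM). Of the 23 noncoding RNAs listed as neighbours of homeobox genes 22 were found, as 24 entries, of which 3 reached 1 TPM: Dlx6os1, Dlx1as and Emx2os. The entries included 14 at 0.

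None of the 86 partner genes tested was called apart between the libraries by the exact binomial test, where 1.88% of all genes were. At an unadjusted p under 0.05 there were 29 (33.7%), against 21.8% of all genes, and edgeR's exact test with a common dispersion also called 0. Prox1 came closest to the fold minimum among those past the p threshold, 1.41-fold higher in replicate 2. Of 4 dentate granule cell markers 1 was called higher in replicate 2, and their sum, Prox1 included, was 114 and 142 TPM; their part in this was not tested.

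Transcript shares were read from the first transcript table, which gives each transcript as a percent of its gene's TPM. Of the 15 genes at 1 TPM or more 14 have several annotated transcripts, and 14 of the 15 had the same leading transcript in both libraries. Lhx2-201, a protein-coding transcript of 2840 bases, held 68.5% of Lhx2 in replicate 1 and 63.5% in replicate 2, with Lhx2-203 at 19.8% and 22.3%. Emx1 was split between the coding Emx1-201 (66.1% and 67.2%) and a transcript annotated as a retained intron (33.9% and 32.8%). In Emx2 the coding Emx2-201 held 67.2% and 69.3%, and the short noncoding Emx2-203 held 32.8% and 21.6%. Lhx2, Emx1 and Emx2 kept the same leader in the second transcript table as well, as did 9 of the 14 genes with several transcripts in all.

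Retained-intron transcripts had a share in both libraries for 10 of the 15 genes, from 5.35% and 5.10% of Meis2 to 36.6% and 39.1% of Dlx1. In Meis3 they held 38.8% in replicate 1 and 23.7% in replicate 2. The coding Dlx1-201 held 52.0% and 41.6% of Dlx1, and Dlx5-201 held 92.6% and 90.0% of Dlx5. Nkx6-2-201, which led Nkx6-2 with 71.2% and 74.6%, is annotated as a target of nonsense-mediated decay, and the coding transcript held 28.77% and 25.42%.

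Several shares differed between the libraries by more than the level of the gene. Meis2-206 held 19.7% of Meis2 in replicate 1 and 0% in replicate 2, where Meis2-205, a transcript of near equal length, went from 0.11% to 20.1%. Lhx9-201 went from 30.4% to 48.5% and Lhx9-205 from 10.8% to 0%. Pax6, with 26 transcripts, was led by Pax6-225 in replicate 1 (26.96%, against 3.80% in replicate 2) and by a different coding transcript in replicate 2 (22.8%). The second table did not show the exchange in Meis2: there Meis2-206 held 12.4% and 15.5%, and Meis2-205 0.274% and 2.04%. It gave Pax6-225 2.04e-08% and 0%. Lhx9-201 (6.23% to 45.5%) and Lhx9-205 (32.2% to 0.0321%) moved the same way in it. The tables also disagreed on leaders: the second put Meis2-218 (29.0%) and Meis2-210 (17.1%) first in replicates 1 and 2. Both tables and libraries together gave 4 different leaders of Pax6. With 2 libraries no share was tested.

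Counts from the second transcript table, summed over each gene, gave the silent genes a second reading. For the 15 genes at 1 TPM or more the summed counts were 0.897 to 1.32 times those of the gene table (median 1.09 over genes and libraries). Of the 50 genes at 0, the second table also had 31 at 0 and gave counts to 19. At least 5 counts in both libraries were seen for 5 of the 50 (10%), against 11.9% of protein-coding genes at 0, so the homeobox genes did not stand out in this. The 5 were Pax3 (15.1 and 11.2 counts), Hoxd9 (11.2 and 10.4), Hoxd11 (12.6 and 7.77), Hoxb1 (12 and 8) and Hoxa13 (6 and 5).

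The highest level that the second table gave to any of the 50 genes was 0.454 TPM, under the threshold. Otx2 had 9 and 28 counts there and was called apart in that table too (adjusted p = 0.0295, exact binomial test with Benjamini-Hochberg adjustment), as were 1.56% of the genes tested.

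**Figure D4:**
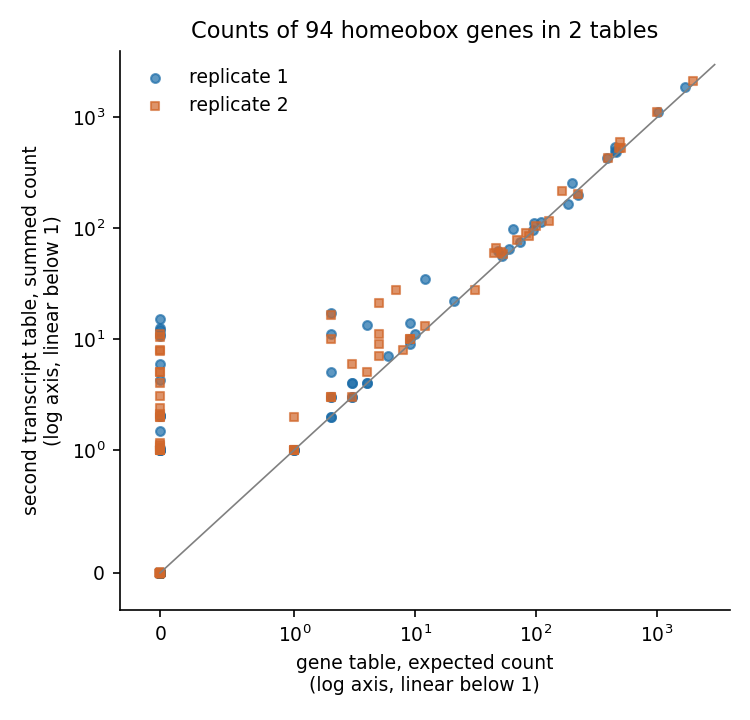
Summed count in the second transcript table against the expected count in the gene table for the 94 homeobox genes (axes logarithmic above 1 and linear below), with a circle for replicate 1 and a square for replicate 2. Genes on the diagonal have equal counts; the column of points at 0 on the horizontal axis holds genes with counts in the second table alone, up to 15.1.

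Promoter sequences were compared because most of these genes are silent in the tissue, and CG dinucleotides are the sites where DNA methylation and Polycomb recruitment are known to act. RefSeq windows of 300 bases (GRCm38.p6, 250 before the start and 50 after it) were found for 62 of the 94 genes by symbol. The set held 32851 windows for 27025 symbols, and only the first listed for each symbol was used. The 5 shown are the expressed genes and the silent Hox genes with the most and the fewest CGs, and Otx2, chosen after their values were seen. They are printed 5′ to 3′ on the gene's strand, with each CG in capitals. The windows are Emx1 at chr6:85187681-85187980 (plus), Lhx9 at chr1:138842395-138842694 (minus), Hoxa13 at chr6:52260831-52261130 (minus), Hoxa9 at chr6:52227321-52227620 (minus) and Otx2 at chr14:48667595-48667894 (minus).
Emx1: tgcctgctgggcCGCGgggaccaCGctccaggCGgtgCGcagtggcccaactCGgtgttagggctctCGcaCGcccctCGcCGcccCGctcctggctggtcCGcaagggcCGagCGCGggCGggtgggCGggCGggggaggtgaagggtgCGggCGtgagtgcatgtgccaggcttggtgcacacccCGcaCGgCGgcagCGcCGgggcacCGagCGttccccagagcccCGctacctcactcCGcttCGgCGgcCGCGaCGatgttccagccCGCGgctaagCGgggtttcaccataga
Lhx9: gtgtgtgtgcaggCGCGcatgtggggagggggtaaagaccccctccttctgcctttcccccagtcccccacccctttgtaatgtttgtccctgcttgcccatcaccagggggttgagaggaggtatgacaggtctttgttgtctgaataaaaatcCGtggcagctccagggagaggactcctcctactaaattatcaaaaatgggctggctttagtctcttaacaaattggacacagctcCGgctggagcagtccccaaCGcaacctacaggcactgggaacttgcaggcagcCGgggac
Hoxa13: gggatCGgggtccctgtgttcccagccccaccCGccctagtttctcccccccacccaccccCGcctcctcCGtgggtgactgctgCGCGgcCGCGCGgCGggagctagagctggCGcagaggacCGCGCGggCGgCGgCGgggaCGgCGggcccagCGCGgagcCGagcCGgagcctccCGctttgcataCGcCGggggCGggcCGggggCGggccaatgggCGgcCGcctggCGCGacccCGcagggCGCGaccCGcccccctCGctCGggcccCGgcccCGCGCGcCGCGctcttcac
Hoxa9: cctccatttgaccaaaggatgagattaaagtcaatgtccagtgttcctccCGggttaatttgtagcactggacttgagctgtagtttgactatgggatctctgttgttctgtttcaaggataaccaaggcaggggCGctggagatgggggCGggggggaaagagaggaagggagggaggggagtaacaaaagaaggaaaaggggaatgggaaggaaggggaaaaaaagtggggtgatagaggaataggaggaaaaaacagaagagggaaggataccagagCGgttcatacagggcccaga
Otx2: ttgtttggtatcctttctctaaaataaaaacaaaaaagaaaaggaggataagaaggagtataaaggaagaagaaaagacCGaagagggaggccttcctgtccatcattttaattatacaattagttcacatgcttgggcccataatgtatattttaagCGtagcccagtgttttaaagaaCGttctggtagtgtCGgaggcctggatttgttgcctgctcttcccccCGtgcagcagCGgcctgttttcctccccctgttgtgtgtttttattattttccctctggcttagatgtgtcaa

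Emx1 has 37 CGs in its window and Lhx9 has 6, although both were expressed at similar levels. Hoxa13 has 45 and Hoxa9, which shares the lowest number with other silent Hox genes, has 4, and Otx2 has 6. Both Hoxa13 and Hoxa9 were at 0 counts in the gene table. In the second transcript table Hoxa9 was also at 0, but Hoxa13 had 6 and 5 counts. CG number alone, in these windows, did not separate expressed from silent genes. The median was 23.5 CGs (6 to 37) over the 12 genes at 1 TPM or more with a window, 14 (4 to 40) over 19 genes with fewer reads and 15 (4 to 45) over 31 genes at 0, against 14 over protein-coding genes and 7 over all promoters. Median GC content was 66.2%, 58.3% and 60.0% in the same order, and 57.0% over protein-coding genes. The ranges of the 3 sets overlap, no test was made, and 4 of the 5 windows printed, those of Emx1, Lhx9, Hoxa9 and Otx2, lie inside the spans that the annotation used for counting gives these genes. Such a window can mark an internal start, so the CGs counted may not be those of the gene's main promoter.

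Motifs were searched on both strands. TAATTA, the core that many homeodomains bind, was in 3 of the 62 windows (4.84%), Otx2 among them, against 5.31% of all promoters and 4.61% of those of protein-coding genes. TGACAG, bound by Meis and related TALE proteins, was in 11 (17.7%), Lhx9 among them, against 19.3% and 18.4%. TATAAA, the TATA box, was in 6 (9.68%) against 14.2% and 12.9%, and was in the window of Otx2. A match is a description of letters in the window and not a binding site.

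**Figure D5:**
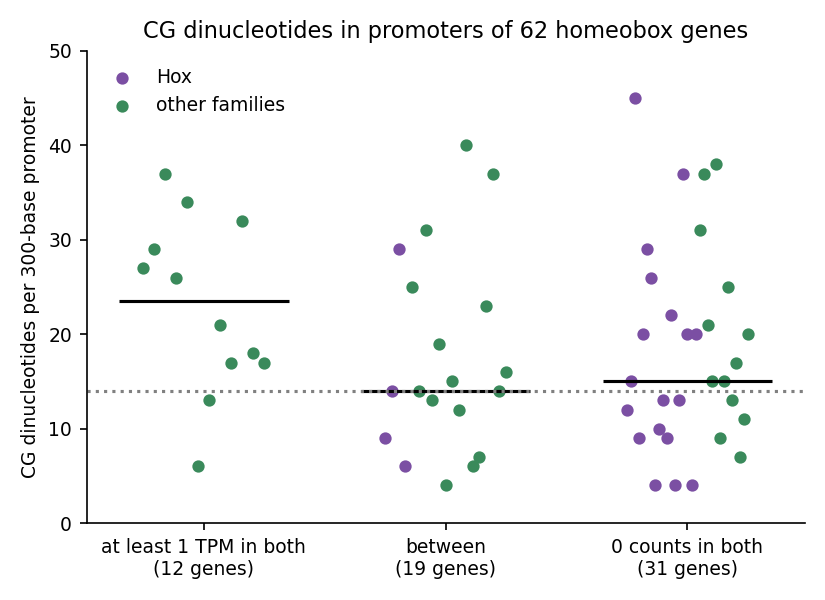
CG dinucleotides per 300-base promoter of 62 homeobox genes, split by level in the tissue, with Hox genes in purple and the other families in green. Solid lines are medians (23.5, 14 and 15) and the dotted line is the median of protein-coding genes (14); the points of the 3 sets overlap.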

How the data were processed

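The deposited files are a gene table and 2 transcript tables for each of 2 total RNA libraries of mouse hippocampus. Per the file headers, the authors' gene table and first transcript table give expected counts and TPM, with each transcript's share as a percent of its gene and a posterior SD of the count, treated here as a score. The second transcript table deposited by the authors gives estimated counts and TPM. A description deposited with the files names mm10 and GENCODE M21. Which aligner, counting program and strand setting were used is not given in the sources used here. ERCC spike-ins, 0.421% and 0.408% of counts in replicates 1 and 2, were kept out of gene totals and tests.

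Genes were chosen by symbol. The genes, partner lists, marker lists and tests were chosen with earlier results of these data known. Named are all genes with a mean of at least 1 TPM, those apart between the libraries, the highest of each family, those from 0.5 to 1 TPM, and the 3 highest of each partner list; further genes were named after their values were seen, and some genes are not reported here.

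Expected counts were rounded and scaled by edgeR's trimmed mean of M values (TMM, edgeR 4.0.16 in R 4.3.3). With 1 library on each side no quasi-likelihood fit was possible. An exact two-sided binomial test was run on 18270 genes with a mean count of at least 10, with Benjamini-Hochberg adjustment. Folds have 0.5 counts added. Intervals are exact 95% Clopper-Pearson intervals. Alternatives were DESeq2 1.42.0 size factors, total counts, spike-in totals, other filters, thresholds and pseudocounts, the second transcript table and edgeR's exact test with a common dispersion. The procedure was tested on simulated counts with counting error alone, which cannot show calls that come from further spread between libraries. SciPy 1.17.1 and pandas 2.3.3 were used in Python 3.11.15. Promoters are RefSeq windows on GRCm38.p6, the first listed for each symbol.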

Additional observations from a re-analysis of the deposited data

How the results depend on the processing

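The number of homeobox genes at 1 TPM or more in both libraries, 15, was 16 at a threshold of 0.5 TPM, 11 at 2 TPM, 17 in the second transcript table, 17 with TPM rescaled over protein-coding genes, and 15 without either replicate. The number at 0 counts, 50, was 31 in the second transcript table, and 53 to 56 when 1 library was left out. Otx2 stayed the 1 gene called apart with DESeq2 size factors, total counts, spike-in totals, no filter on low counts and the second table. A mean count of at least 100 gave 0, because Otx2 was then not tested, and edgeR's exact test with a common dispersion gave 0. Without the fold minimum 3 were called, Lhx2, Nkx6-2 and Otx2. Of all genes, 344 were called as reported, 2074 without the fold minimum, 155 with the common dispersion and 112 at the higher count minimum. Of 102 log2 ratios recomputed for 17 genes, 100 kept the gene's call (from counts) or stayed inside the 95% interval of the reported ratio (from TPM), and 2, both of Lhx9 from TPM, moved from 0.06 to -0.16. Among the 100, Otx2 went from 1.69 to 0.90 and Emx2 from 0.09 to -0.05 with TPM, and Dlx6 from -0.73 to -0.35 in the second table. Of 15 leading transcript shares 9 moved by more than the spread between libraries in the second table. Leaving out a library ends every test between them. Depth limits the 75 genes under the count minimum, which were not tested.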
